A study of Mus musculus with 5 samples.

Results

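The 45 genes described here are immediate early genes and feedback inhibitors of mitogen-activated protein kinase (MAPK) signalling, measured by RNA-seq of whole mouse kidney. They were taken as the rows of the gene table whose symbol was on a list of 45 names, and all 45 were found among the 23997 rows of the table. The study compared 3 libraries labelled as uninduced controls, titled control 0 to 2, with 2 libraries labelled as Pkd1 knockout, here called knockout 0 and 1. All 5 came from mice aged 8 weeks, and the series asks about metalloproteinases and tubule basement membrane in cystic kidney. Pkd1 encodes polycystin-1, whose loss causes cystic kidney disease. The strain, the sex, the agent and Cre driver of induction, any further allele the groups share and the number of animals per library are not given in the labels. The short names used for the knockout, SKO in the titles and PkdTKO in the design text, are not explained there. Because nothing states how the libraries relate to animals, the p-values below reflect only how these 5 samples vary, and that variation may be in part technical.

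Immediate early genes are transcribed within minutes of a stimulus from factors already present in the cell, without new protein synthesis. Growth factors activate the kinases RAF, MEK and ERK, and stress activates JNK and p38. These kinases act on factors such as the ETS-family ternary complex factors, which with serum response factor switch on Fos and Egr1. The products include the AP-1, EGR and KLF transcription factors, and RNA-binding proteins that shorten the life of the same transcripts. A further set turns the signal down: dual-specificity phosphatases (DUSP) remove phosphate from the MAP kinases, and Sprouty and SPRED proteins act upstream of them, between receptor and RAF. In the kidney many of these genes are known to respond to ischaemia, tubule injury and growth factor receptor signalling.

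Values are FPKM, a level corrected for transcript length and for the number of mapped fragments, as deposited. Differences were tested with limma on log2(FPKM + 1) over the 12640 rows with a mean of at least 1 FPKM, with Benjamini-Hochberg adjustment over all of them. A gene passed at an adjusted p under 0.05, and a difference on that scale understates the change of a gene of low level. Exchanging the labels of 3 against 2 libraries cannot give an exact permutation p below 0.1. No single gene could pass that way, and those values are not given here.

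Pkd1 itself was read at 3.22, 3.51 and 3.49 FPKM in control 0, 1 and 2 and at 2.72 and 3.60 in knockout 0 and 1, a log2 difference of -0.09 (limma adjusted p = 0.646). The table gives no part of the gene on its own, so a deletion of some exons could not be seen, and "knockout" here means the library labelled so. Xist was under 0.03 FPKM in every control, 30.8 in knockout 0 and 80.3 in knockout 1, while the Y-linked Ddx3y was 17.8, 18.6 and 18.0 in the controls, against 7.30 in knockout 0 and 0.00194 in knockout 1. The controls thus held male-type RNA, knockout 1 female-type RNA and knockout 0 RNA of both kinds, so that sex and genotype cannot be told apart in any result below. FPKM summed to between 462814 and 507053 per library. The steps between low values put the depth of the other libraries at 109, 67, 57 and 133% of that of control 0, in the order given. Among the markers of kidney cells, the proximal tubule genes Lrp2, Slc34a1 and Kap were listed at 0 in all 5 libraries, and Umod, the distal tubule uromodulin, was at 0 in the controls alone. A listed 0 for genes that these cells use may be a failed estimate, and none of the 45 genes had a library at 0.

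Of the 45 genes, 35 passed the filter on low values, and 13 of these were higher in the knockout. These were Fos, Jun, Junb, Egr1, Nr4a1, Ier2, Ier5, Zfp36, Zfp36l1, Btg2, Spry1, Spry2 and Etv5, with limma adjusted p between 0.00783 and 0.0461. None was lower by limma, and at an unadjusted p under 0.05 there were 19 higher and 1 lower. Such an unadjusted p was reached by 3680 of all 12640 tested rows, the background for counts of this kind here and below. Over all tested rows, 345 (2.73%) were higher and 457 (3.62%) lower, so that 43.0% of the calls were higher, a share that became 63.1% when the values were rescaled to TPM. Under that rescaling 14 of the genes on the list were higher.

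Of the 45 genes, 32 had both knockout libraries above every control, among them 24 of the 35 tested, against 21.9% of all tested rows. Both knockout libraries lay below every control for 2 of the genes, Klf2 and Mafk, against 26.3% of all tested rows. The median log2 difference over the 35 tested genes was 0.54, and over all tested rows it was -0.02. Atf3 and Dusp8 had control means under 1 FPKM and passed the filter only through their knockout libraries. The other 10 genes, Fosb, Fosl1, Egr2, Egr3, Nr4a2, Nr4a3, Dusp2, Dusp5, Dusp10 and Etv4, were not tested. Their values ran from 0.00376 to 1.53 FPKM, and 8 of the 10 had both knockout libraries above every control. The share among all rows below the filter was not taken, so counts that include untested genes have no matching background. In bulk tissue, a change in the number of cells of a type and a change in RNA per cell cannot be told apart.

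The count of 13 depended on the libraries used. With limma it was 1 (Egr1) without control 0, 5 (Fos, Egr1, Zfp36, Btg2 and Spry1) without control 1 and 0 without control 2. In that last case all 13, picked from these same libraries, kept a limma unadjusted p under 0.05, as did 2140 of all tested rows. Without knockout 0 it was 12, of which 11 were among the 13, with Klf6 added and Ier2 and Zfp36l1 lost. Without knockout 1 it was 20, all of the 13 with Atf3, Fosl2, Klf4, Klf6, Maff, Srf and Dusp8. Where 1 knockout library was left, it was assumed to vary as the controls do.

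**Figure D1:**
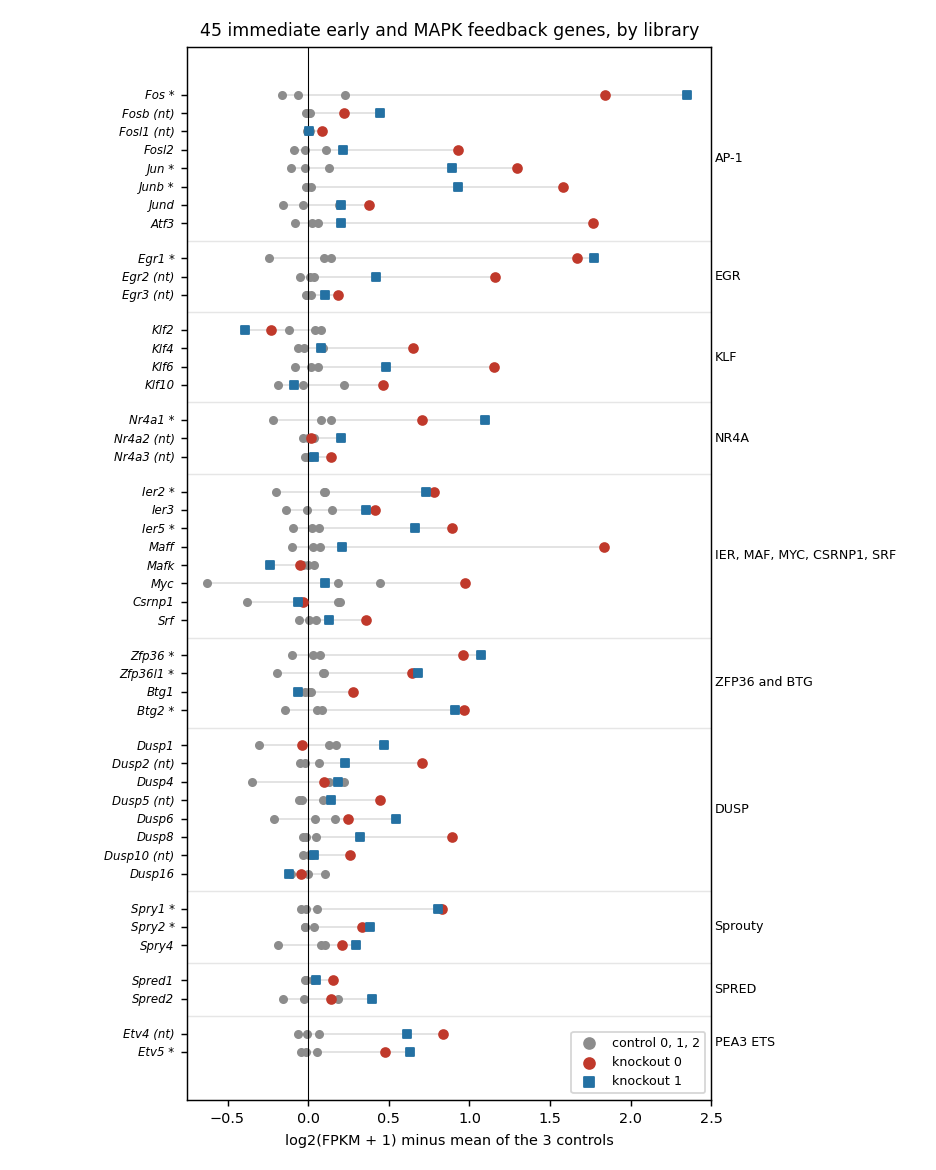
Level of each of the 45 genes in each library minus the mean of the 3 controls on the log2(FPKM + 1) scale (horizontal axis), by role, with grey points for the controls, red circles for knockout 0 and blue squares for knockout 1. An asterisk marks the 13 genes that passed, all with both knockout libraries right of the controls, and nt marks the 10 genes not tested.

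Fos, the founding partner of the AP-1 dimer, showed the largest log2 difference among the 35 tested genes. Its levels were 1.28, 1.80 and 1.13 FPKM in control 0, 1 and 2 (1.40 ± 0.350, SD, n = 3) and 7.54 and 11.2 in knockout 0 and 1. Both knockout libraries lay several times above the highest control, and the log2 difference was 2.09 (SE 0.195, limma adjusted p = 0.0127). The gene lies on chromosome 12 at 85473890 to 85477273, plus strand (mm10). Its relatives were low: Fosb was 0.135, 0.125 and 0.146 FPKM in the controls and 0.325 and 0.544 in the knockouts, and Fosl1 stayed under 0.1 in every library. Fosl2, the Fos relative of highest level in the controls, was 3.80, 4.03 and 4.51 FPKM there, 8.74 in knockout 0 and 4.93 in knockout 1. Its log2 difference was 0.57 (limma adjusted p = 0.156), and knockout 0 stood apart from the other 4 libraries.

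The makeup of Fos-family RNA differed with these levels. FPKM is per length, so levels of different genes can be set side by side. Fos made up 24.7 ± 5.35% (SD, n = 3) of the summed Fos, Fosb, Fosl1 and Fosl2 FPKM in the controls, against 45.2% in knockout 0 and 67.0% in knockout 1. Fosl2 made up 72.7 ± 5.06% of it in the controls, against 52.4% in knockout 0 and 29.6% in knockout 1. The summed level was 5.66 ± 0.388 FPKM in the controls and 16.7 in each knockout library. The sum was thus nearly equal in the knockouts, while Fosl2 was the larger part in knockout 0 and Fos in knockout 1.

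Jun and Junb, the Jun partners that are induced by stimulation, rose, and Jund, the constitutive one, did not pass the test. Jun was 10.5, 9.86 and 11.8 FPKM in the controls and 27.7 and 20.7 in the knockouts, a log2 difference of 1.09 (SE 0.143, limma adjusted p = 0.0255). Junb was 8.60, 8.82 and 8.67 FPKM in the controls (8.70 ± 0.115, SD, n = 3) and 28.0 and 17.5 in the knockouts, a log2 difference of 1.26 (SE 0.190, limma adjusted p = 0.0307). The controls of Junb lay within a few percent of each other, and knockout 0 was well above knockout 1. Jund was 61.6, 56.5 and 72.0 FPKM in the controls and 82.3 and 72.8 in the knockouts, so that knockout 1 was barely above the highest control (log2 difference 0.29, limma adjusted p = 0.193). Jund still made up most Jun-family RNA: 76.4 ± 1.36% in the controls, against 59.6% in knockout 0 and 65.6% in knockout 1. Its share in both knockout libraries lay below every control, since the summed level went from 82.8 ± 8.79 FPKM in the controls to 138.0 and 111.0. Atf3, a stress-induced bZIP factor that can pair with Jun, was 1.02, 0.832 and 0.969 FPKM in the controls, against 5.59 in knockout 0 and 1.24 in knockout 1 (log2 difference 0.98, SE 0.443, limma adjusted p = 0.210). Nearly all of the Atf3 difference lay in 1 library.

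Egr1, a zinc finger factor induced by ERK through serum response factor, had the smallest adjusted p of the 45. It was 5.28, 7.19 and 6.97 FPKM in the controls (6.48 ± 1.05, SD, n = 3) and 22.6 and 24.3 in the knockouts, a log2 difference of 1.72 (SE 0.134, limma adjusted p = 0.00783). The knockout libraries were close to each other and more than 3 times the highest control. It is on chromosome 18 at 34859823 to 34864984, plus strand. Egr2 and Egr3, its relatives, had means under 1 FPKM. Egr2 was 0.141, 0.0950 and 0.160 FPKM in the controls, against 1.53 in knockout 0 and 0.516 in knockout 1. Egr3 was between 0.0464 and 0.0665 FPKM in the controls and at 0.198 and 0.131 in the knockouts. Both genes were thus above every control in both knockout libraries, with knockout 0 the higher.

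None of the 4 KLF factors passed by limma, with 1 higher and 1 lower at an unadjusted p under 0.05. Klf6, a Krüppel-like factor induced by injury, was 11.4, 12.3 and 12.7 FPKM in the controls and 28.2 and 17.4 in the knockouts (log2 difference 0.82, SE 0.198, limma adjusted p = 0.0716). Klf2, the flow-responsive factor of endothelium, was 11.4, 13.2 and 12.9 FPKM in the controls and 10.5 and 9.29 in the knockouts. Its log2 difference of -0.31 was the lowest of the 35 tested genes (SE 0.0941, limma adjusted p = 0.107), and both knockout libraries lay below every control. The 10 endothelial markers on a separate list summed to between 219.8 and 229.6 FPKM in the controls and to 238.1 and 237.5 in the knockouts, and none of them passed or was at 0. Klf4 (3.54 to 4.05 FPKM in the controls, 6.45 and 4.01 in the knockouts) and Klf10, a TGF-beta-induced factor (4.17 to 5.86, against 7.13 and 4.55), were above the controls in knockout 0 and within their range in knockout 1.

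Nr4a1, an orphan nuclear receptor induced by cAMP and growth factors, was 2.08, 1.51 and 2.21 FPKM in the controls and 3.75 and 5.23 in the knockouts (log2 difference 0.90, SE 0.170, limma adjusted p = 0.0461). Of the 13 it lay nearest the threshold, and knockout 1 was the higher library. Nr4a2 and Nr4a3, receptors of the same family, stayed under 0.5 FPKM in every library.

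Of the 8 genes of the IER, small MAF, MYC, CSRNP1 and SRF group, 2 rose, with a group median log2 difference of 0.46. Ier2, a small nuclear protein of the primary response, was 6.77, 8.55 and 8.57 FPKM in the controls and 14.4 and 13.8 in the knockouts (log2 difference 0.76, SE 0.113, limma adjusted p = 0.0306). Ier5, a related gene that acts on heat shock factor, was 5.65, 6.22 and 6.41 FPKM in the controls and 12.1 and 10.2 in the knockouts (log2 difference 0.78, SE 0.0983, limma adjusted p = 0.0242). For both genes the lower knockout library stood well above the highest control. Ier3, a survival factor, had knockout values of 34.9 and 33.7 FPKM against 23.5 to 28.9 in the controls (limma adjusted p = 0.0819). Srf, which encodes serum response factor, was 8.38, 8.83 and 9.12 FPKM in the controls and 11.5 and 9.69 in the knockouts (log2 difference 0.24, limma adjusted p = 0.157).

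Other genes of that group differed mainly in 1 library or not beyond the controls' range. Maff, a small MAF protein, was 1.24, 1.05 and 1.32 FPKM in the controls, against 6.83 in knockout 0 and 1.54 in knockout 1 (log2 difference 1.02, SE 0.460, limma adjusted p = 0.210), the same shape as Atf3. Mafk, its constitutive relative, was 15.6, 15.1 and 14.8 FPKM in the controls and 14.6 and 12.8 in the knockouts (log2 difference -0.14, limma adjusted p = 0.293). Myc, the growth-promoting bHLH factor, was uneven among the controls, at 7.49, 3.04 and 6.08 FPKM, and was 11.2 in knockout 0 and 5.71 in knockout 1. Csrnp1, an AXIN1-induced nuclear protein, was 4.33, 2.61 and 4.38 FPKM in the controls and 3.58 and 3.49 in the knockouts, both inside the range of the controls (log2 difference -0.05, limma adjusted p = 0.893).

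**Figure D2:**
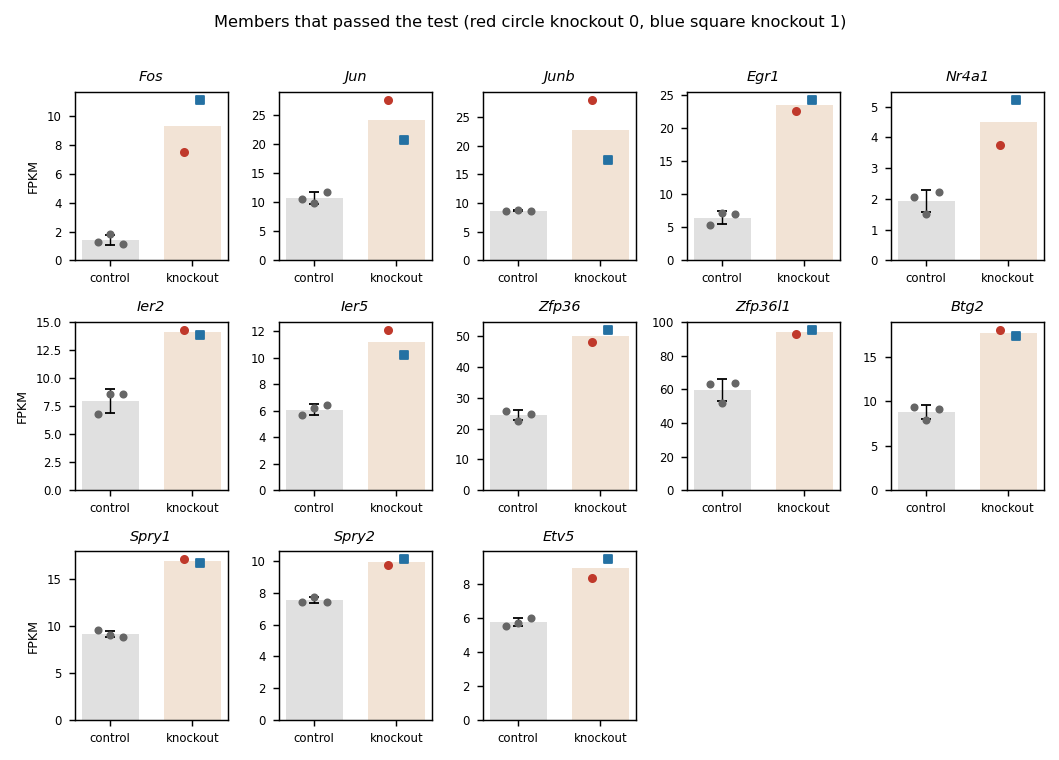
FPKM (vertical axis, starting at 0) of the 13 genes that passed, 1 panel each: bars are group means, points are libraries, and the error bar is the SD of the 3 controls. In each panel both knockout libraries lie above every control, and in Jun, Junb and Ier5 knockout 0 is well above knockout 1.

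Of the 4 RNA-decay and antiproliferative genes, Zfp36, Zfp36l1 and Btg2 rose and Btg1 did not pass, with a median log2 difference of 0.80 over the 4. Zfp36, which encodes tristetraprolin and promotes decay of AU-rich transcripts, many immediate early mRNAs among them, was 25.6, 22.5 and 24.8 FPKM in the controls (24.3 ± 1.59, SD, n = 3) and 48.2 and 52.2 in the knockouts. Its log2 difference was 1.02 (SE 0.0852, limma adjusted p = 0.00928), and the knockout libraries were close to each other and far above the highest control. Zfp36l1, a relative with the same RNA-binding fingers, was 63.4, 51.9 and 63.6 FPKM in the controls and 93.2 and 95.7 in the knockouts (log2 difference 0.66, SE 0.113, limma adjusted p = 0.0377). Btg2, an antiproliferative partner of the CCR4-NOT deadenylase, was 9.36, 7.84 and 9.11 FPKM in the controls and 18.0 and 17.3 in the knockouts (log2 difference 0.94, SE 0.0918, limma adjusted p = 0.0141). In these 3 genes the knockout libraries differed little from each other. Btg1, the relative of Btg2, was 21.1, 20.6 and 21.0 FPKM in the controls, against 25.5 in knockout 0 and 19.9 in knockout 1, on either side of the controls (log2 difference 0.11, limma adjusted p = 0.577).

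Promoter windows from 250 bases before to 50 bases after the start were read from RefSeq (GRCm38.p6) for the 36 of 45 genes that the table holds. Both strands were searched for 4 motifs, none of which contains another: the CArG box bound by serum response factor, the cAMP response element TGACGTCA, the AP-1 site TGANTCA and the EGR site GCGNGGGCG. The 9 genes without a window were Fosl1, Egr1, Egr3, Klf10, Ier2, Myc, Dusp4, Spry4 and Etv4. A CArG box lay in the windows of 4 of the 36 genes (11.1%, against 1.81% of all 27025 genes with a window), namely Srf, Egr2, Dusp5 and Zfp36. The Fos window held no match and Egr1 could not be read. Bases further upstream were not searched, so a gene without a match may still have the element. The cAMP response element lay in 4 (11.1% against 2.03%), Btg2, Maff, Dusp1 and Dusp8. The AP-1 site lay in 2 (5.56% against 8.97%), Zfp36l1 and Csrnp1. The EGR site lay in 13 (36.1% against 6.27%). Of the 11 genes that rose and had a window, 3 held it, Zfp36, Btg2 and Nr4a1. The others with it were Fosb, Fosl2, Klf2, Klf4, Nr4a2, Maff, Mafk, Srf, Dusp2 and Dusp16. Klf2 and Mafk among them were below every control in both knockout libraries, so matches were not particular to the genes that rose. The median GC content was 64% over the windows of the 36 genes, with or without a match, and 52.7% over all windows. Such a match describes letters only. Of the 13 genes that rose, 11 had a window and 4 of them held a match, and the 250 bases before the start of these 4 are shown, 5′ to 3′ on the gene's strand, with the matches in capitals. In Zfp36 (chr7:28379229-28379478, minus strand) the EGR site and the CArG box began 105 and 58 bases before the start, and in Btg2 (chr1:134079156-134079405, minus strand) the cAMP response element and the EGR site began 166 and 131 bases before it. In Nr4a1 (chr15:101266596-101266845, plus strand) an EGR site on the opposite strand began 60 bases before the start, and in Zfp36l1 (chr12:80113014-80113263, minus strand) an AP-1 site began 129 bases before it.
Zfp36: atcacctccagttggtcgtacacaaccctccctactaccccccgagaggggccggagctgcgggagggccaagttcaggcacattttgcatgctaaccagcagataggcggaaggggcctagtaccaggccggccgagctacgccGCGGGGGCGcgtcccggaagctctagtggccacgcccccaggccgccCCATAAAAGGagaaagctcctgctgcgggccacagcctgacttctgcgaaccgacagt
Btg2: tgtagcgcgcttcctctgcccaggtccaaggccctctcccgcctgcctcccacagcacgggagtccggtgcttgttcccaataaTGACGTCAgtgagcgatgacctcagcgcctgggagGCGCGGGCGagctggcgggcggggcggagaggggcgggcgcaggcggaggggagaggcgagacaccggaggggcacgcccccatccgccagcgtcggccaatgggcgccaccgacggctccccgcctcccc
Nr4a1: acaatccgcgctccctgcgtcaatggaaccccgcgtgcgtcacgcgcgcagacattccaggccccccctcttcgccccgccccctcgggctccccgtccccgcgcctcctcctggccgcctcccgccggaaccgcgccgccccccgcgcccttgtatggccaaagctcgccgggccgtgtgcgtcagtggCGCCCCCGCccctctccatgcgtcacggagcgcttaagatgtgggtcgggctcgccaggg
Zfp36l1: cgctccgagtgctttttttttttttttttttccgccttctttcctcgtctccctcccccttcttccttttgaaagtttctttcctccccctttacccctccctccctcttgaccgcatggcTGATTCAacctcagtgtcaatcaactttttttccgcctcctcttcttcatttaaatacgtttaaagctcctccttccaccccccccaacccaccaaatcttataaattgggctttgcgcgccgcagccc

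Among the feedback genes, none of the 5 tested dual-specificity phosphatases passed by limma, with 2 higher and 0 lower at an unadjusted p under 0.05. Dusp1, the nuclear phosphatase of p38 and JNK that is itself an immediate early gene, was 30.8, 21.9 and 30.0 FPKM in the controls, against 26.5 in knockout 0 and 38.2 in knockout 1. Knockout 0 lay inside the range of the controls, and the log2 difference was 0.21 (95% interval -0.32 to 0.75, limma adjusted p = 0.545). Dusp6, the cytoplasmic ERK phosphatase, was 17.3, 14.4 and 19.0 FPKM in the controls and 20.1 and 25.0 in the knockouts (log2 difference 0.40, 95% interval 0.02 to 0.77, limma adjusted p = 0.155). Dusp8, a phosphatase of JNK and p38, was 0.837, 0.812 and 0.922 FPKM in the controls and 2.45 and 1.32 in the knockouts. It had the smallest adjusted p of the 5 (log2 difference 0.61, limma adjusted p = 0.112), with most of the difference in knockout 0. Dusp8 was 1 of the 2 genes higher without adjustment, and it passed the filter on low values only through its knockout libraries.

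Dusp4, a nuclear phosphatase induced by ERK, was 3.67, 2.15 and 3.39 FPKM in the controls and 3.29 and 3.55 in the knockouts, inside the controls' range (log2 difference 0.14, limma adjusted p = 0.662). Dusp16, a JNK phosphatase, was 8.27, 7.0 and 7.62 FPKM in the controls and 7.35 and 6.92 in the knockouts (log2 difference -0.08, limma adjusted p = 0.574). The ERK phosphatases Dusp2 (0.434 to 0.554 FPKM in the controls, 1.42 and 0.740 in the knockouts) and Dusp5 (0.448 to 0.606, against 1.05 and 0.662) were too low to be tested, and so was the stress kinase phosphatase Dusp10 (0.610 to 0.675, against 0.965 and 0.689). In these 3 genes both knockout libraries were above every control, knockout 0 by more.

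**Figure D3:**
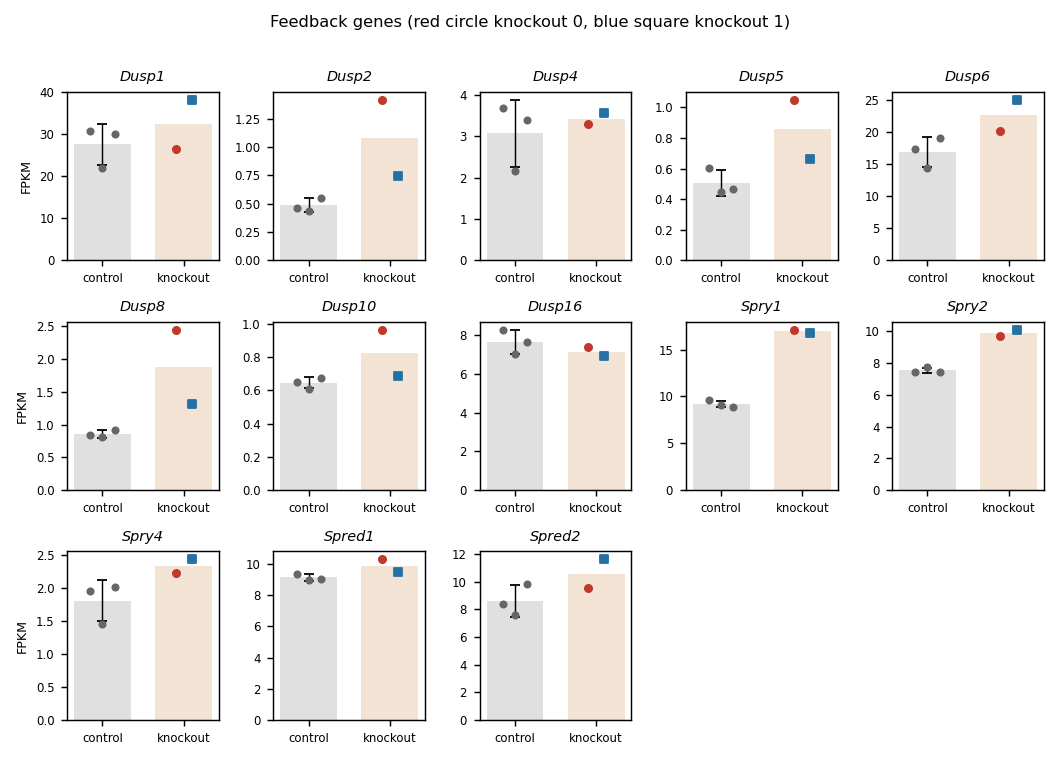
FPKM (vertical axis, starting at 0) of the 8 dual-specificity phosphatases, 3 Sprouty and 2 SPRED genes: bars are group means, grey points are control libraries with their SD, and the circle and square are knockout 0 and 1. Spry1 and Spry2 show both knockout libraries close together and above the controls, while Dusp1, Dusp4 and Dusp16 have a knockout library within their range.

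All 3 Sprouty genes were above every control in both knockout libraries, and 2 of them passed. Spry1, an inhibitor of receptor tyrosine kinase signalling known for its part in ureteric bud branching, was 9.59, 9.12 and 8.91 FPKM in the controls (9.21 ± 0.347, SD, n = 3) and 17.1 and 16.8 in the knockouts. Its log2 difference was 0.82 (SE 0.0655, limma adjusted p = 0.00825), and the knockout libraries nearly coincided. The gene is on chromosome 3 at 37639947 to 37644598, plus strand, and 24.4% of its exonic bases overlap the opposite-strand gene Gm42922. Spry2, a relative that likewise damps ERK activation by growth factors, was 7.42, 7.74 and 7.43 FPKM in the controls and 9.73 and 10.1 in the knockouts, a smaller log2 difference of 0.36 (SE 0.0640, limma adjusted p = 0.0417). Spry4, another of these inhibitors, was 1.96, 1.45 and 2.01 FPKM in the controls and 2.23 and 2.43 in the knockouts (log2 difference 0.25, limma adjusted p = 0.249). The Sprouty-related Spred1 (8.99 to 9.36 FPKM in the controls, 10.3 and 9.49 in the knockouts) and Spred2 (7.59 to 9.86, against 9.55 and 11.6) did not pass with limma (adjusted p = 0.367 and 0.242), and neither had an unadjusted p under 0.05.

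Etv5, an ETS factor of the PEA3 group that is transcribed downstream of ERK and GDNF signalling, was 5.56, 5.69 and 6.01 FPKM in the controls and 8.39 and 9.45 in the knockouts (log2 difference 0.55, SE 0.0800, limma adjusted p = 0.0286). Both knockout libraries were clear of the controls, knockout 1 the higher. Its relative Etv4 was 0.176, 0.291 and 0.227 FPKM in the controls and 1.20 and 0.885 in the knockouts, and passed when no filter on low values was used.

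Set against each other, the AP-1, EGR and KLF factors and the DUSP and Sprouty genes differed in how the 2 knockout libraries behaved. Of the 15 factors 11 were tested and 4 rose, with a median log2 difference of 0.82, and of the 11 feedback genes 8 were tested and 2 rose, with a median of 0.30. The difference between the medians was 0.51. Atf3 and Dusp8, which passed the filter on low values only through their knockout libraries, are in these medians. With a filter of at least 5 FPKM, which leaves both out, the difference was 0.34. That filter too was on the mean of all 5 libraries. Fosl2 and Klf10, with control means of 4.11 and 4.93 FPKM, passed it only through their knockout libraries. It also left out Fos, Klf4, Dusp4 and Spry4, so it does not free the difference of such selection. In knockout 0 the median over the control mean was 1.15 for the factors and 0.23 for the feedback genes, and in knockout 1 it was 0.22 and 0.35. By role, the knockout 0 medians were 1.44 for AP-1, 0.56 for KLF, 0.10 for DUSP and 0.33 for Sprouty genes. In knockout 1 they were 0.55, -0.003, 0.32 and 0.38, in the same order. Egr1, the only tested EGR gene, was at 1.67 and 1.77. Without knockout 0 the difference of the medians was thus -0.13, the opposite sign, and without knockout 1 it was 0.92. Over all tested rows the median was -0.04 in knockout 0 and 0.00 in knockout 1. With 2 knockout libraries that go opposite ways for the pooled groups, an order of these groups was not established beyond the spread between libraries. The SD of that spread within the control and knockout groups was 0.444 for the difference. Within both groups some genes had close levels in the knockout libraries, such as Egr1 in the one and Spry1 and Spry2 in the other.

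A ratio of 1.5 between the knockout libraries, chosen after the values were seen, separated the genes further. Knockout 0 was at least 1.5 times knockout 1 for 9 of the 35 tested genes, Fosl2, Junb, Atf3, Klf4, Klf6, Klf10, Maff, Myc and Dusp8, against 8.59% of all tested rows. Of these, Atf3 and Dusp8 passed the filter on low values only through their knockout libraries. No tested gene had knockout 1 at least 1.5 times knockout 0, against 5.82% of all tested rows. Over all 45 the counts were 15 and 2, the latter being Fosb and Nr4a2, but the shares above cover tested rows only. Of the 9 tested genes, Junb alone was among the 13 that passed.

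Summed markers of macrophages, injured tubule, fibroblasts and neutrophils were highest in knockout 0. Markers of tubule segments were mixed, with some low in both knockout libraries and others not. For the 4 podocyte markers the order was different: knockout 0 had the lowest sum, 88.9 FPKM, and knockout 1 the highest, 131.0. Control sums lay between these, at 96.6, 122.9 and 104.9, and no podocyte marker passed by limma. The 9 macrophage markers found of 10 summed to 104.5, 93.6 and 98.9 FPKM in the controls, against 398.0 in knockout 0 and 137.7 in knockout 1, with none of the 8 tested called by limma, 5 of them higher at an unadjusted p under 0.05 and none at 0. The 8 markers of injured tubule summed to 129.7, 145.2 and 135.9 FPKM in the controls, against 493.4 in knockout 0 and 135.9 in knockout 1, with none of the 7 tested called, 2 of them higher at an unadjusted p under 0.05 and none at 0. Havcr1, the kidney injury molecule, was 137.4 FPKM in knockout 0 and 0.593 in knockout 1, against 0.718 to 1.12 in the controls. The 7 fibroblast markers summed to between 62.4 and 92.9 FPKM in the controls, with 174.2 in knockout 0 and 97.9 in knockout 1, and the 6 neutrophil markers to between 2.42 and 3.26 in the controls, with 4.20 and 2.93 in the knockouts, with none at 0 in either list. Knockout 1 was above every control too for all 9 macrophage markers and for 4 of the 8 injury markers, Sox9, Vcam1, Cd44 and Vim. Their part in the levels of the 45 genes was not tested.

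Of the 9 markers of distal tubule and collecting duct, Calb1, the calcium-binding calbindin, was lower, at 263.7, 288.1 and 244.9 FPKM in the controls and 100.5 and 148.8 in the knockouts (log2 difference -1.11, limma adjusted p = 0.0362). Pvalb and Atp6v1g3 of that list did not pass with limma (adjusted p = 0.0969 and 0.0811), with both knockout libraries below every control. In knockout 0, 8 of the 9 markers lay below every control and 1 above. In knockout 1 the list was split, with 4 below and 4 above. The list summed to between 1186 and 1203 FPKM in the controls and to 1484 and 2330 in the knockouts, sums that include Umod, which was at 0 in the controls alone. The 8 proximal tubule markers, with the 3 at 0 named above, summed to 1148, 839.1 and 1040 FPKM in the controls and to 653.9 and 443.3 in the knockouts. None of the 5 tested passed by limma, with 1 higher and 2 lower at an unadjusted p under 0.05. Both knockout libraries lay below every control for 2 of the 5, among them Slc22a6, an organic anion transporter. They lay above every control for 1 of the 5. The part of these markers in the levels of the 45 genes was not tested either.

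**Figure D4:**
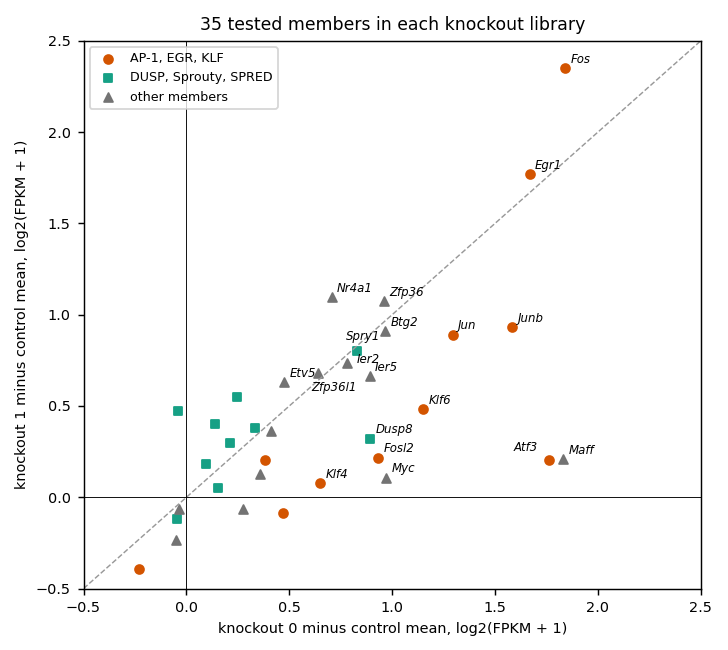
Difference of each of the 35 tested genes from the control mean on the log2(FPKM + 1) scale in knockout 0 (horizontal axis) and knockout 1 (vertical axis), with the line of equal difference dashed. Egr1, Zfp36, Btg2 and Spry1 lie near the line, Fos lies above it, and Atf3, Maff, Klf6 and Fosl2 lie below it.

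Genes that carry the signal to these targets are read beside all tested rows, of which 2.73% were higher and 3.62% lower by limma. The same shares are the background for the lists of further genes below. Of 32 tested genes of the MAPK cascade, from RAS and RAF to ERK, JNK and p38, none was higher (2 at an unadjusted p under 0.05) and 1 was lower by limma, with a median log2 difference of -0.00. That gene was Map2k6, an activator of p38, at 11.5, 9.50 and 10.4 FPKM in the controls and 5.32 and 6.68 in the knockouts (log2 difference -0.72, limma adjusted p = 0.0372). Of 11 regulators of the SRF and CREB kind 1 was higher, the ternary complex factor Elk3, at 5.73, 5.73 and 5.81 FPKM in the controls and 7.92 and 7.51 in the knockouts (log2 difference 0.37, limma adjusted p = 0.0409). The median of the 11 was 0.09. Levels of RNA say nothing of the phosphorylation that activates these kinases, which was not measured here.

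Of 28 tested genes among 30 further primary response genes, 2 were higher and 0 lower by limma, with 9 higher and 1 lower at an unadjusted p under 0.05 and a median log2 difference of 0.24. Cebpd, an acute phase bZIP factor, was 5.21, 3.62 and 5.83 FPKM in the controls and 10.7 and 10.3 in the knockouts (log2 difference 0.99, limma adjusted p = 0.0406). Bhlhe40, a stress-responsive repressor, was 18.2, 13.2 and 15.0 FPKM in the controls and 31.3 and 25.0 in the knockouts (log2 difference 0.82, limma adjusted p = 0.0471). Both had knockout values above every control.

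Among 29 relatives of the 45 genes, 23 were tested, 2 were higher and 1 lower, with a median log2 difference of 0.05. The higher ones were the small phosphatases Dusp3, at 18.2, 19.0 and 19.8 FPKM in the controls and 26.6 and 25.7 in the knockouts (log2 difference 0.44, limma adjusted p = 0.0330), and Dusp14, at 9.94, 12.8 and 10.1 against 17.9 and 18.4 (log2 difference 0.69, limma adjusted p = 0.0383). These phosphatases lack the kinase-docking domain of Dusp1 and Dusp6. The lower one was Klf15, a glucocorticoid-induced factor, at 60.9, 56.0 and 63.0 FPKM in the controls and 38.9 and 42.3 in the knockouts (log2 difference -0.55, limma adjusted p = 0.0312). Of 7 heat shock genes, 1 was lower and 1 higher by limma, and the higher one, Hspa8, was listed at 0 in the controls. The lower one was Hspa1a, an inducible gene that responds to protein damage, at 6.21, 6.43 and 6.0 FPKM in the controls and 4.09 and 4.69 in the knockouts (log2 difference -0.42, limma adjusted p = 0.0471).

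Some of the 45 genes share exonic bases with a gene on the other strand, and the sources used here do not say whether the counting used strand. The overlap was 57.2% of exonic bases for Fosl1 with Ccdc85b, 55.9% for Zfp36l1 with Gm26669, 52.6% for Jund with Gm11175 and 22.1% for Dusp5 with AC137853.2 (GENCODE M21). For Junb with Prdx2 it was 7.52% and for Jun with Junos 7.28%. Reads of such pairs cannot be told apart without strand, so the levels of these genes are uncertain to that degree.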

How the data were processed

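Whole-kidney total RNA was extracted with TRIzol and made into libraries with an Illumina mRNA-seq kit, per the labels' protocols. Reads were demultiplexed with bcl2fastq, and the genome build is mm10, per the submitters' processing notes. For the aligner, the program that gave the values, its annotation and its use of strand, the entry is: not given in the sources used here. Deposited by the authors was 1 table of FPKM per gene for the 5 libraries, normalized for transcript length and library size, with no counts, so depth was read only from the steps between low values, with lengths of single-transcript genes.

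Log2(FPKM + 1) of the 12640 rows with a mean of at least 1 was fitted by group, all 5 libraries, with limma 3.58.1 (variance trend) in R 4.3.3, and the code was checked on simulated data. Tables were made with Python 3.11.15 and pandas 2.3.3. A log2 difference on this scale is knockout minus control. The members and lists were chosen with earlier results of these data known. Named were the genes that passed, the smallest adjusted p in each of 10 role lists, the 3 highest and 3 lowest differences, up to 3 passing genes of each further list, and others of the 45 for completeness. A list is described by its counts and median. The alternatives were another pseudocount (0.1), filters, scalings, variance models, thresholds, a replicate block and leaving out each library. The numbers 0 and 1 occur in both groups but nothing says that they mark a shared animal or day. Gene positions are from GENCODE M21 (mm10), and promoters are from RefSeq.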

Additional observations from a re-analysis of the deposited data

How the results depend on the processing

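The 13 higher calls among the 45 genes were 8 with no filter on low values (7 of the 13, with Etv4 added), 5 at 2-fold or more, and 11 under quantile normalization (Nr4a1 and Spry2 lost). They were 13 or 14 under another pseudocount, TPM or median-of-ratios scaling, and either variance model. With each library left out in turn they ranged from 0 to 20. None was lower under any of these. Libraries of the same replicate number did not deviate together (correlations of 0.09 and 0.00). The deviations of 2 knockout libraries always mirror each other, so those correlations cannot tell whether the numbers mark pairs. With the replicate number as a block, the number of higher calls among the 45 was 0. All 13, picked from these same libraries, stayed positive with a limma unadjusted p under 0.05. With the block, 1862 of all tested rows had such a p, in either direction. Under that block 25 of all tested rows were higher and 3 lower.

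Over all tested rows, the 345 higher were 813 at an adjusted p under 0.1, 110 at 2-fold or more, and 29 to 1450 with a library left out. The 457 lower were 1231, 83 and 5 to 1149 under the same changes, 231 with no filter and 266 as TPM. The median of the AP-1, EGR and KLF factors ran from 0.22 (without knockout 0) to 1.15 with a library left out. Its difference from the DUSP and Sprouty median ran from -0.13 (without knockout 0, reversed) to 0.92. For the named genes, 222 of the alternative values kept direction and side of the threshold, 56 lost the call, 4 gained it and 0 reversed. The cause of the lost calls was not tested. With no deposited counts, precision at low FPKM is not known.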
